A study of Mus musculus with 12 samples.

Results

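Among 12 left ventricles of mice aged 6 months, 3 held far less transcript of Dbp, a transcription factor gene with one of the strongest daily rhythms in mammalian tissues, than the other 9. The low-Dbp hearts were chosen by the mean log2 value over both Dbp probes in the authors' normalized table, as the 3 arrays with the lowest mean, and the same 3 were lowest by the scanner's signals. They were 1 heart of each group, namely Control replicate 1, Nkx2-5Δtrab replicate 2 and Nkx2-5Δcomp replicate 2, and they were compared with the remaining 9 (3 per group) in a model that keeps the groups apart. All mice carried floxed alleles of the cardiac transcription factor gene Nkx2-5. In the mutants a tamoxifen-dependent Cre was driven from Cx40, which in the embryonic ventricle is active in the trabecular myocardium, so that the gene was deleted in some of the ventricular cells. Tamoxifen was given to the pregnant mothers at E10.5 plus E11.5 (embryonic days) for the 4 Nkx2-5Δtrab mice and at E13.5 plus E14.5 for the 4 Nkx2-5Δcomp mice. Of the 4 control mice the methods say that they were littermates without the Cre allele, and the labels that they were not injected. Pups were delivered by caesarean section and raised by CD1 females, and RNA was taken from the left ventricular wall with the apex and without the septum. The time of day at which the hearts were taken is given neither in the labels nor in the methods.

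The mammalian clock is a loop of transcription factors present in nearly every cell, cardiomyocytes included. Arntl (BMAL1) pairs with Clock or its relative Npas2 and drives genes with an E-box, among them the Per, Cry, Nr1d and Bhlhe4 repressors and the PAR bZIP genes Dbp, Tef and Hlf. The Per and Cry proteins close the loop by holding back the Arntl and Clock pair, and the Nr1d proteins (REV-ERB) compete with the Ror receptors at ROR elements in Arntl, Clock and Nfil3. Nfil3 binds the same D-box as the PAR bZIP factors and opposes them, so that Arntl and Nfil3 peak when Dbp and Per3 are near their trough.

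Some of the genes that the comparison turns on hold elements of this loop in their promoters, and others do not. Windows from 250 bases before to 50 bases after each annotated start were read from RefSeq on GRCm38.p6, and 18 of 21 clock genes had one. Both strands were searched for the E-box CACGTG, the D-box TTATGNAA and the ROR element TAGGTCA, which occur in 7.15%, 3.38% and 2.61% of all 32851 such windows. The stretches below are written 5′ to 3′ along the gene, with the matching letters in capitals. They were picked because they hold a match. The earlier of 2 annotated Per1 starts, Bhlhe41, Tef and Lonrf3 stand for the E-box, and Per3 and the same Per1 start for the D-box. Nfil3 (on the opposite strand) and the later of 2 annotated Arntl starts stand for the ROR element. The other Per1 start had no match.
Per1, chr11:69098773-69098948, plus strand: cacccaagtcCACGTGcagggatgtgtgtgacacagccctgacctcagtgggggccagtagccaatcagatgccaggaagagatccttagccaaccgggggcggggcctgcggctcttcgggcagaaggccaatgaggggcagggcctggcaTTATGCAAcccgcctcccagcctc
Per3, chr4:151044813-151044880, minus strand: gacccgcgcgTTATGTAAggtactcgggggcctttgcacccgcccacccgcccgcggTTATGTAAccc
Bhlhe41, chr6:145865556-145865585, minus strand: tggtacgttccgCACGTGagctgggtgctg
Tef, chr15:81802534-81802563, plus strand: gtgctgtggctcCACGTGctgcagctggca
Lonrf3, chrX:36328352-36328381, plus strand: cgtggtaggagtCACGTGgttgcgttttat
Nfil3, chr13:52981040-52981069, minus strand: tagcgcggcgctcggaacTGACCTActaac
Arntl, chr7:113207528-113207557, plus strand: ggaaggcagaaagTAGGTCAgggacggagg
In all, 5 of the 18 clock genes with a window held the E-box at any of their starts, 2 the D-box and 2 this ROR element. Its other form TGGGTCA, which occurs in 3.98% of all windows, was held by 0 of 18. These counts are per gene, while the shares over all windows are per window. No match to any of them lay in the windows of Dbp, Nr1d1, Nr1d2, Hlf, Cry2, Clock, Arntl2, Npas2, Rora or Rorb, which says only that these letters are not in these windows.

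The mean log2 signal of Dbp in the authors' table was 11.18 in Control replicate 1, 11.76 in Nkx2-5Δtrab replicate 2 and 11.95 in Nkx2-5Δcomp replicate 2. In the 9 other hearts it ranged from 13.42 in Nkx2-5Δcomp replicate 1 over a median of 14.08 to 14.47 in Control replicate 4. The heart just inside the limit thus lay 1.47 log2 units (2.77-fold) below the one just outside it. Within the groups the low heart was 2.96, 2.18 and 1.91 log2 units below the mean of its 3 companions in Control, Nkx2-5Δtrab and Nkx2-5Δcomp, a mean difference of 5.10-fold. These values chose the hearts and were not tested.

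The low hearts did not stand out in array quality, with 23576 to 25257 probes well above background against 22888 to 26155 in the others and 0 saturated spots. The log2 signal of the targeted gene Nkx2-5 lay between 11.89 and 12.23 in the 4 control hearts and between 11.12 and 11.67 in the 8 mutant hearts, without overlap. Of 8 ventricular cardiomyocyte markers, all 8 were measured. Y-linked genes gave a signal in 3 of 3 low hearts and in 3 of 9 others (Nkx2-5Δtrab replicate 4 and Nkx2-5Δcomp replicates 3 and 4). Since the low heart was the only control heart with such a signal, sex and the Dbp class cannot be told apart among the controls. Control and Nkx2-5Δcomp arrays shared 1 slide and the Nkx2-5Δtrab arrays filled another, so that each slide held low and other hearts. Precision is limited by the number of arrays, and in RNA of whole tissue fewer cells of a type and less RNA per cell cannot be told apart.

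In the low hearts Arntl and Nfil3 were higher and the repressor and PAR bZIP genes were lower, but no single gene passed the test across the array. With limma, a Benjamini-Hochberg adjusted p under 0.05 was reached by 0 of 24591 probes (the smallest was 0.189) and an unadjusted p under 0.05 by 1882. Taking the brightest probe of each of 18020 genes, 7.85% were under an unadjusted 0.05 (4.43% higher and 3.42% lower in the low hearts). Of the 17 clock genes that could be tested, 14 were under it, 4 of them higher and 10 lower in the low hearts. In 1.2% of all genes the 3 low hearts did not overlap the 9 others, and this held for 7 of the 17 clock genes, with Arntl and Nfil3 above and Per3, Nr1d1, Nr1d2, Bhlhe40 and Tef below. Arntl, Per3 and Nfil3 had been named as markers of the phase with these data known, which leaves 4 of 14. In 5.47% of all genes the low heart of each group lay outside the 3 others of that group on the same side (3.41% higher, 2.05% lower), and this was so for 11 of the 17 (4 higher, 7 lower).

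**Figure D1:**
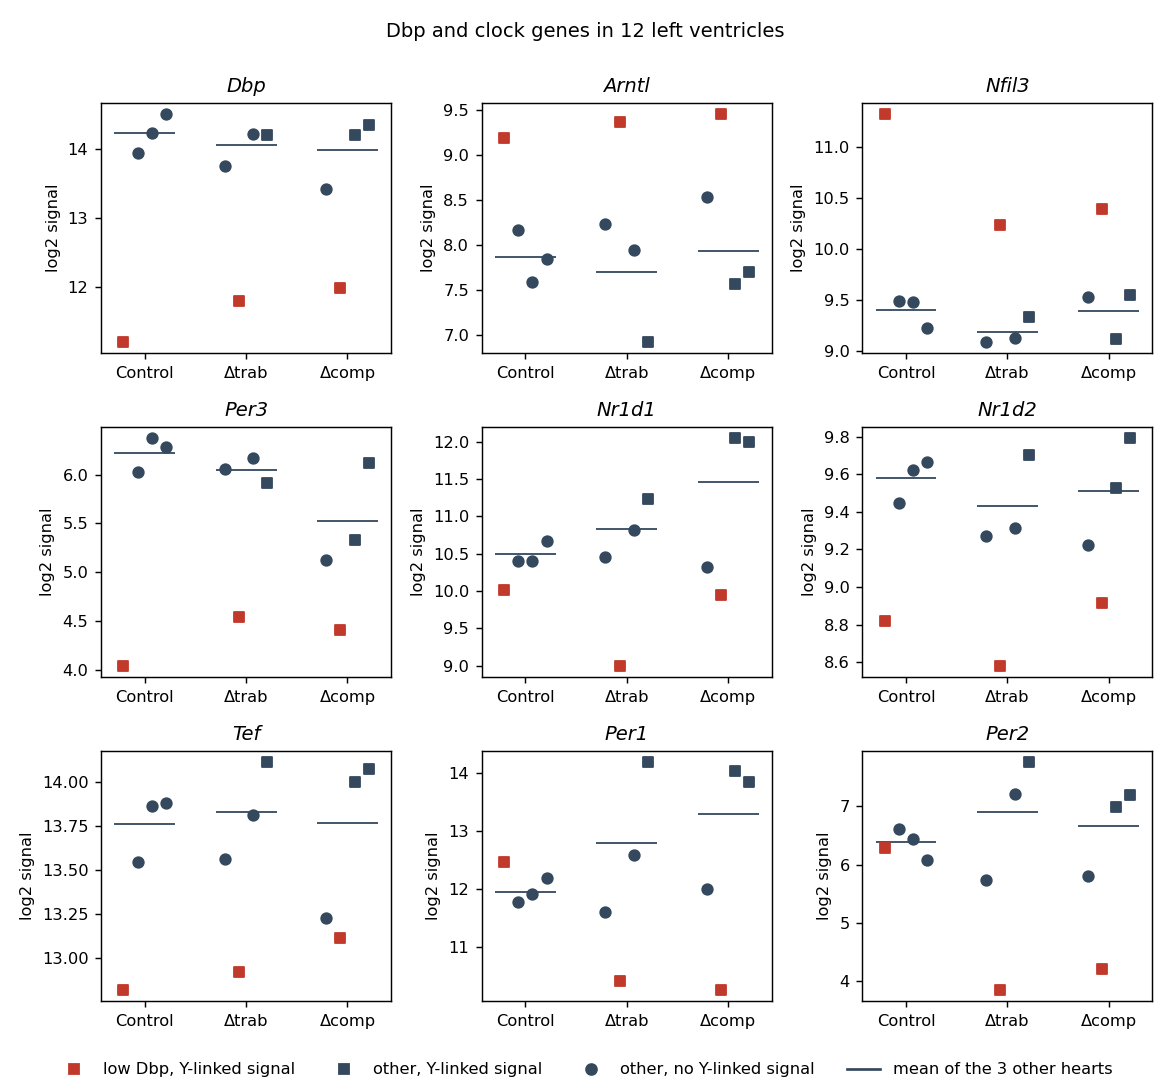
Log2 signal (y axis) of Dbp and 8 clock genes in each of 12 hearts by group (x axis). Red points are the 3 low-Dbp hearts, squares are hearts with Y-linked signal, and lines are means of the 3 other hearts of a group. Arntl and Nfil3 lay above and Per3, Nr1d1, Nr1d2 and Tef below all 9 others, whereas Per1 and Per2 of the low control heart lay within or above the range of the other control hearts.

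Arntl, the partner of Clock in the activating pair, showed the largest difference among the activators. Its log2 signal was 9.19, 9.37 and 9.45 in the low hearts of Control, Nkx2-5Δtrab and Nkx2-5Δcomp. In the 9 others it ran from 6.92 over a median of 7.84 to 8.54, so that every low heart lay above every other heart. The difference of 1.5 ± 0.28 (SE) log2 units had an adjusted p of 0.335. The exact permutation of the low heart within each group, two-sided over 64 orders, gave p = 0.0156, the smallest this design allows. This p is unadjusted. It needs a low heart outermost on the same side in each group, which held for 5.47% of all genes. For Arntl and Nfil3, named as markers with these data known, it is no independent support. The difference of Arntl was close to the same size in each group, at 1.33, 1.67 and 1.52 log2 units.

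Clock was 0.44 ± 0.16 log2 units higher in the low hearts (adjusted p = 0.618). Its signal was 7.98, 7.81 and 7.64 against 7.02 to 7.72 in the others, and only the low Nkx2-5Δcomp heart fell within their range. The receptor gene Rora was level at -0.01 ± 0.13 and Rorb 0.17 ± 0.22 higher (adjusted p = 0.994 and 0.861). Arntl2, a paralog of Arntl, was 0.32 ± 0.49 lower with signals of 5.73 to 7.69 in the low hearts and 5.29 to 8.77 in the others, which overlapped throughout. The probe of Npas2 was not well above background on any array.

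All 8 repressor genes that could be tested were lower in the low hearts. Their median difference was -1.01 log2 units, beside 0.02 over all genes, whose 5th percentile was -0.36. Per3, a weaker relative of the core Per genes, had log2 signals of 4.04, 4.55 and 4.41 in the low hearts and from 5.12 over 6.06 to 6.37 in the others. Its probe was not well above background on any low array and well above it on all 9 others, so that its level was at least 2.94-fold lower on this scale (adjusted p = 0.189). This size depends on the processing, since the log2 difference of Per3 was -1.60 here, -0.62 with normexp and -0.82 in the authors' values.

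Nr1d1 and Nr1d2, which encode REV-ERBα and REV-ERBβ, were lower in each group. The log2 signal of Nr1d1 was 10.01, 9.0 and 9.95 in the low hearts and from 10.33 over 10.67 to 12.05 in the others. All low hearts lay below the others, with a difference of -1.27 ± 0.37 (adjusted p = 0.614, exact permutation p = 0.0156). Nr1d2 was 8.82, 8.58 and 8.91 against 9.22 to 9.79, with a median of 9.53. Both of its probes gave the same difference of -0.74, with SEs of 0.13 and 0.12 (adjusted p = 0.335 and 0.204), and neither showed an overlap.

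Per1 and Per2, the Per genes that also answer quickly to hormones and stress, were not low in every low-Dbp heart. Per2 was 3.86 in the low Nkx2-5Δtrab heart and 4.22 in the low Nkx2-5Δcomp heart, below all others (5.74 to 7.76), but 6.28 in the low control heart, between its companions. Per1 was 10.42 and 10.27 in the low mutant hearts, again below all others (11.61 to 14.19). In the low control heart it was 12.47, above the other controls at 11.77, 11.92 and 12.18. The differences over all groups were -1.63 ± 0.71 for Per1 and -1.86 ± 0.56 for Per2 (adjusted p = 0.651 and 0.614). With 1 array left out, that of Per1 ran from -2.70 without Control replicate 1 to -0.93 without Nkx2-5Δcomp replicate 2, and that of Per2 from -2.74 without Control replicate 1 to -1.27 without Nkx2-5Δtrab replicate 2. Per2 was well above background on 1 of 3 low and 9 of 9 other arrays, so that the size of its difference rests on low values near background. The log2 difference of Per2 was -0.79 with normexp.

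Cry2, the partner of the Per proteins, was 10.24, 10.08 and 10.58 against 10.44 to 11.61 in the others, a difference of -0.70 ± 0.22 (adjusted p = 0.614). Bhlhe40 and Bhlhe41, which compete for the E-box, were 0.70 ± 0.16 and 0.75 ± 0.30 log2 units lower (adjusted p = 0.460 and 0.626). The low hearts did not overlap the others in Bhlhe40, with 8.42 to 8.85 against 8.88 to 9.51. The probe of Cry1 was not well above background on any array. That of Ciart, a further repressor, was well above it on 0 of 3 low arrays and 5 of 9 others and was not tested. Its mean log2 signal over the 9 others was 4.75, at least 1.34-fold above the level at which the low arrays could have measured it.

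Among the genes of the D-box, Nfil3 had the smallest p of the whole array. Its log2 signal was 11.32, 10.23 and 10.39 in the low hearts, and in the others it ran only from 9.09 over 9.34 to 9.55. The difference of 1.32 ± 0.17 log2 units (2.50-fold) had an adjusted p of 0.189 and an exact permutation p of 0.0156. It was 1.92 in Control and 1.05 and 1.00 in the mutants. Tef was 12.82, 12.92 and 13.11 against 13.23 to 14.11, a difference of -0.83 ± 0.18 (adjusted p = 0.450) without overlap. Hlf was 0.62 ± 0.15 lower (adjusted p = 0.551), and the low hearts at 9.12 to 9.31 overlapped the others at 9.31 to 10.23 by a single heart.

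**Figure D2:**
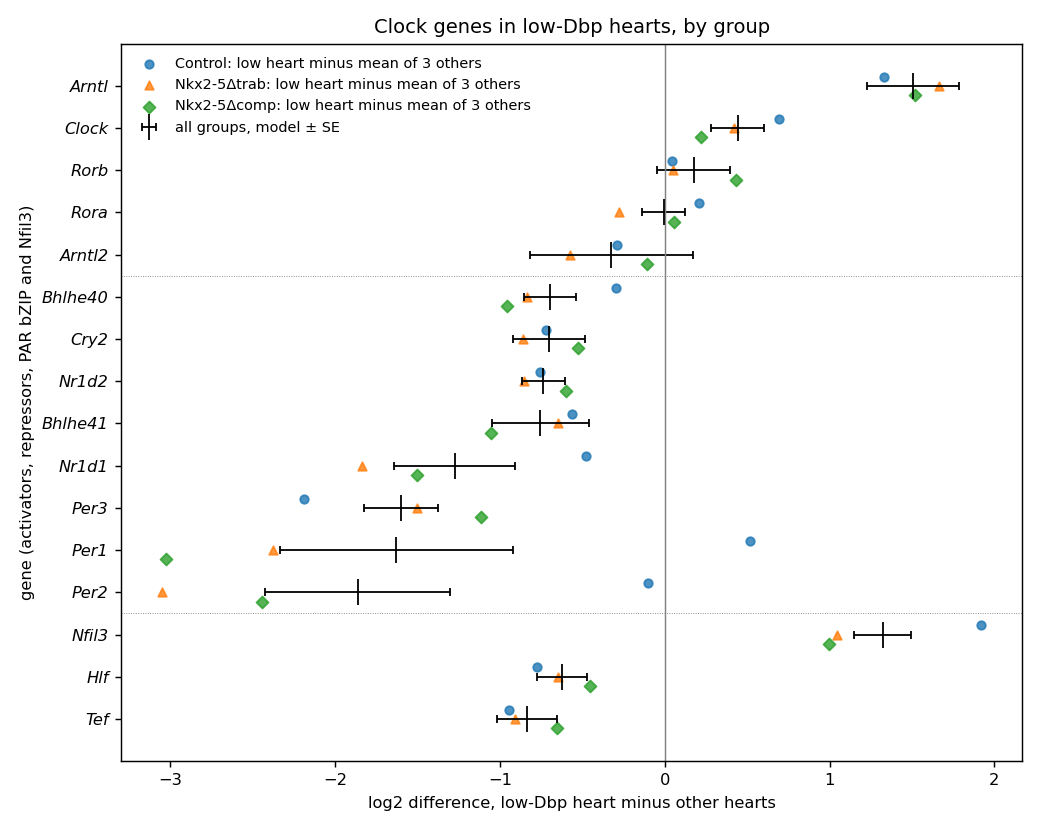
Log2 difference (x axis) between the low-Dbp heart and the other hearts for 16 clock genes (y axis), in each group (points) and over all groups (black marks with SE bars). The 8 repressors are negative over all groups, and the points of Control for Per1 (0.52) and Per2 (-0.10) lie far to the right of those of the mutants.

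The effect of the Dbp class was compared between the groups with limma's F test of the interaction. It passed an adjusted p of 0.05 for 1 probe, that of 0610037P05Rik (named after its values were seen), which differed by -3.41 log2 units in Nkx2-5Δtrab and by 0.08 and 0.11 in Control and Nkx2-5Δcomp. None of the clock genes passed, and their smallest unadjusted p values were 0.0240 for Nfil3, 0.0556 for Per2 and 0.0768 for Per1. With 1 low heart per group this test has little precision.

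**Figure D3:**
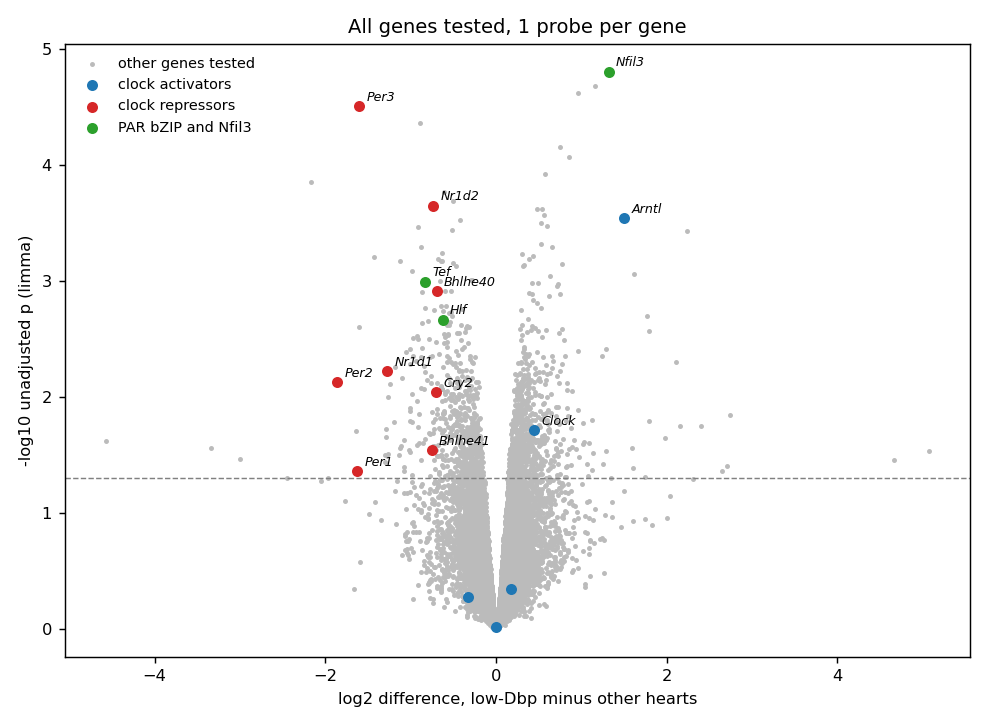
Log2 difference between low-Dbp and other hearts (x axis) and -log10 of the unadjusted limma p (y axis) for 18020 genes, with 16 clock genes in colour. The dashed line marks an unadjusted p of 0.05, and most clock genes lie above it. No gene passed an adjusted p of 0.05.

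The clock genes kept their direction when sex entered the model, and many of them then passed the test. All 3 low hearts had Y-linked signal. Sex could thus be told from the class only through the 3 other hearts with it, which stood apart as described below. With Y-linked signal as a covariate, 561 genes (3.11%) had an adjusted p under 0.05 by their brightest probe, 316 higher and 245 lower, and 11 of the 17 clock genes were among them. Arntl was 2.14 log2 units higher (adjusted p = 0.00399), Nr1d1 2.06, Per1 3.21, Per2 2.88 and Tef 1.17 lower (adjusted p = 0.00921, 0.0121, 0.0267 and 0.0123). In the low control heart, however, Per1 lay above the other controls, as given above, so that its difference did not hold in every group. Per3, Cry2, Nr1d2, Bhlhe41, Hlf and Nfil3 also passed. In that fit 18.8% of all genes were under an unadjusted 0.05, against 7.85% without the covariate. The 6 hearts with Y-linked signal alone were fitted after seeing the data, and the low control heart adds nothing to that contrast. It compared Nkx2-5Δtrab replicate 2 with replicate 4, and Nkx2-5Δcomp replicate 2 with replicates 3 and 4. With so few hearts per group, only the sizes are given. All 17 clock genes kept their direction, with Per1 and Nr1d1 at -3.71 and -2.14 log2 units. The other hearts in this contrast had the highest Per1 and Nr1d1 of the series, as described below, so these sizes depend on them. On slide 1 alone, with Control and Nkx2-5Δcomp, 16 of 17 clock genes kept their direction. There 8 of 17, and 3.6% of all genes, were under an unadjusted 0.05.

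The 3 other hearts with Y-linked signal stood apart among the 9. Their Per1 signals of 14.19, 14.03 and 13.84 were the highest of all 12 hearts, the next being 12.58, and so were their Nr1d1 signals of 11.23, 12.05 and 11.99. In the same hearts the immediate early gene Fos, an example from its list chosen with these data known, was at 7.16, 8.61 and 7.4, above all others (3.58 to 5.91). The part of Y-linked signal and of immediate early genes in the difference between low and other hearts was not tested beyond the fits given here.

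Within the 9 hearts that were not low, the clock genes also varied with the level of Dbp, which ran from 13.42 to 14.47 there. With the group in the model, all 17 had the same sign as in the comparison of low with other hearts. Under an unadjusted 0.05 were 8 of 17, beside 9.42% of all genes, and none passed an adjusted 0.05. Per log2 unit of lower Dbp, Tef was 0.90 lower, Nr1d1 1.53 lower, Cry2 0.96 lower and Arntl 1.10 higher (adjusted p = 0.390, 0.455, 0.486 and 0.514). Nfil3 was only 0.14 higher (adjusted p = 0.847). Over all 12 hearts, the Dbp level in place of the class gave 3 genes (0.0166%) at an adjusted 0.05, namely Per3, Lonrf3 and Nfil3. They differed by -0.69, 0.41 and 0.55 per log2 unit of lower Dbp (adjusted p = 0.0102, 0.0128 and 0.0150). That fit uses the Dbp values that chose the low hearts, so it is no independent support. Per3 and Nfil3 had also been named as markers with these data known. Among the 9 other hearts Per3 differed by -0.64 and Lonrf3 by 0.38 per log2 unit of lower Dbp (adjusted p = 0.545 and 0.577).

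Of 12 genes known to cycle in many tissues, all were tested, and 4 had a positive and 8 a negative difference. Under an unadjusted 0.05 were 3 of the 12, beside 7.85% of all genes. Lonrf3, a ubiquitin ligase gene with the E-box shown above, was 7.39, 7.55 and 7.15 in the low hearts against 5.97 to 6.97 in the others. It was 0.97 ± 0.13 log2 units higher (adjusted p = 0.189), without overlap. Tspan4, a tetraspanin gene, was 9.85, 10.00 and 10.20 against 10.57 to 11.39, a difference of -0.89 ± 0.13 (adjusted p = 0.203). Usp2, a deubiquitinase gene under PAR bZIP control, was 0.47 ± 0.17 lower (adjusted p = 0.618). Wee1, which gates mitosis, was 0.56 ± 0.38 lower (adjusted p = 0.747) and overlapped widely.

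Of 12 genes described as clock outputs of the heart, 1 was under an unadjusted 0.05, a share near the 7.85% of all genes. This was Tcap, the titin cap of the Z-disc, with log2 signals of 17.12, 16.86 and 17.13 against 17.36 to 17.71 in the others. The low hearts did not overlap them, with a difference of -0.47 ± 0.10 (adjusted p = 0.389). Klf15, a regulator of metabolism and repolarization, was 0.42 ± 0.34 lower, and the potassium channel genes Kcnip2 and Kcnd2 were 0.26 ± 0.19 and 0.12 ± 0.10 higher (adjusted p = 0.779, 0.757 and 0.779). The list had a median of 0.04. Of 8 kinase and ligase genes that act on clock proteins, none was under an unadjusted 0.05, and their median was -0.04.

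Genes that answer to fasting and PPARα were mostly lower, with 15 of 19 below 0 (8198 of 18020 over all genes) and a median of -0.15. Under an unadjusted 0.05 were 4 of the 19, all lower, beside 3.42% of all genes in this direction. The mitochondrial uncoupling genes Ucp3 and Ucp2 differed most, by -0.92 ± 0.24 and -0.97 ± 0.25 log2 units (adjusted p = 0.560 and 0.567). Ucp3 was 9.01, 9.41 and 9.41 in the low hearts and from 9.33 over 10.41 to 10.73 in the others. Cpt1a, the entry step of fatty acid oxidation in mitochondria, was 9.89 to 10.15 against 10.16 to 10.79, without overlap (-0.45 ± 0.12, adjusted p = 0.610). Lipid and cholesterol synthesis genes had a median of 0.00, with 0 of 14 under an unadjusted 0.05, beside 7.85% of all genes.

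Some glucocorticoid, immediate early and heat shock genes differed among the low hearts. Zbtb16, a strong glucocorticoid target, was 13.47 in the low control heart and 10.69 and 11.20 in the low mutant hearts, and Cdkn1a was 11.79 there against 9.52 and 9.47. Nr4a1 was 13.26 there, the highest of all 12 hearts, against at most 10.75 in the other low hearts. The heat shock gene Hspa1a was 8.61 there and between 6.19 and 7.0 in all 11 others. Zbtb16, Cdkn1a, Nr4a1 and Hspa1a are examples from lists whose members were chosen with earlier results of these data known. Across the class, 2 of 13 glucocorticoid response genes (Mt1 and Mt2, both lower) and 2 of 17 immediate early genes (Junb and Ier3, both lower) were under an unadjusted 0.05, with list medians of -0.35 and -0.21. Over all genes 7.85% were under it, 4.43% higher and 3.42% lower. Of 15 heat shock genes 14 were above 0 (9822 of 18020 over all genes), with a median of 0.09, and 3 of them were under an unadjusted 0.05.

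Of 12 cell cycle genes 6 passed the filter, and all 6 had a positive difference (median 0.40). None passed an adjusted 0.05, 4 were under an unadjusted 0.05 (beside 4.43% of all genes in this direction), and the low hearts overlapped the others in all 6. The proliferation marker Mki67 was 6.57, 7.41 and 7.03 against 5.82 to 6.60, a difference of 0.75 ± 0.12 (adjusted p = 0.204) with an overlap of 1 low heart. Ccna2, Birc5 and Rrm2 were 0.65 ± 0.19, 0.46 ± 0.14 and 0.34 ± 0.11 higher (adjusted p = 0.614, 0.614 and 0.618). The replication-dependent histone gene Hist1h1b, named after its values were seen, was 1.16 ± 0.16 higher (adjusted p = 0.189) and was well above background on 3 of 3 low and 5 of 9 other arrays. Among the 9 other hearts, Ccna2 ran the other way, with -0.64 per log2 unit of lower Dbp (adjusted p = 0.492).

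Outside the lists, Rgs6 was lower in the low hearts without overlap. It encodes a regulator of G protein signalling that damps vagal signals in the heart, and it was named after its values were seen. Its log2 signal was 4.44, 4.78 and 5.04 in the low hearts, with 1 of 3 arrays well above background, and from 5.40 over 7.04 to 7.69 in the others. The fitted difference was -2.16 ± 0.37 (adjusted p = 0.283), and its size rests on low values near background. The log2 difference of Rgs6 was -0.97 with normexp. Among the 9 other hearts it was 0.72 higher per log2 unit of lower Dbp (adjusted p = 0.758), opposite to the class difference. Ypel2, also named after its values were seen, was 0.86 ± 0.14 higher without overlap (adjusted p = 0.208).

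Genes listed as markers of fat and of atrial muscle had medians below 0 in the low hearts, whose size depended on single hearts. Of 8 adipocyte markers 6 were tested and all 6 were lower, with a median of -0.92. Under an unadjusted 0.05 were 2 of the 6, beside 3.42% of all genes in this direction. Lep was not well above background on any array, and Ucp1, also not tested, was so on 1 low array and 0 of the 9 others. In Nkx2-5Δtrab replicate 2 Adipoq was 3.91, against 7.06 and 6.96 in the other low hearts and 6.49 to 8.18 in the 9 others. The list median was -0.17 without this heart and -1.51 without Nkx2-5Δcomp replicate 2. The summed signal of the adipocyte list was 11612 to 12925 in the low hearts and 12032 to 17088 in the others. All 6 genes of the atrial muscle list were lower, with a median of -0.92, and with summed signals of 12229 to 78652 against 21934 to 161480. The list does not mark atrial tissue alone. The paper used Nppa as a probe for the trabecular zone of the fetal ventricle and reported Bmp10 and Sln as deregulated in its mutant hearts. This median was -0.36 without Nkx2-5Δtrab replicate 2, -0.55 without Control replicate 1 and -1.70 without Nkx2-5Δcomp replicate 2. Nppa, the atrial natriuretic peptide gene, was 12.93, 14.72 and 15.42 against 13.87 to 16.96, a difference of -1.43 ± 0.29 (adjusted p = 0.389). Within every group its low heart was below the 3 others. The part of fat or atrial tissue in the class differences was not tested.

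Other cell types, apart from erythroid genes, differed little between the classes. Medians were 0.05 for ventricular cardiomyocyte, -0.06 for endothelial, -0.09 for fibroblast and matrix, -0.04 for macrophage, -0.08 for lymphocyte, -0.07 for smooth muscle and -0.03 for skeletal muscle markers, the last from 2 of 7 genes. The 4 measured erythroid genes were higher with a median of 0.44, none under an unadjusted 0.05. The cold-inducible RNA-binding protein genes Cirbp and Rbm3 were -0.22 ± 0.28 and 0.00 ± 0.22 apart.

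**Figure D4:**
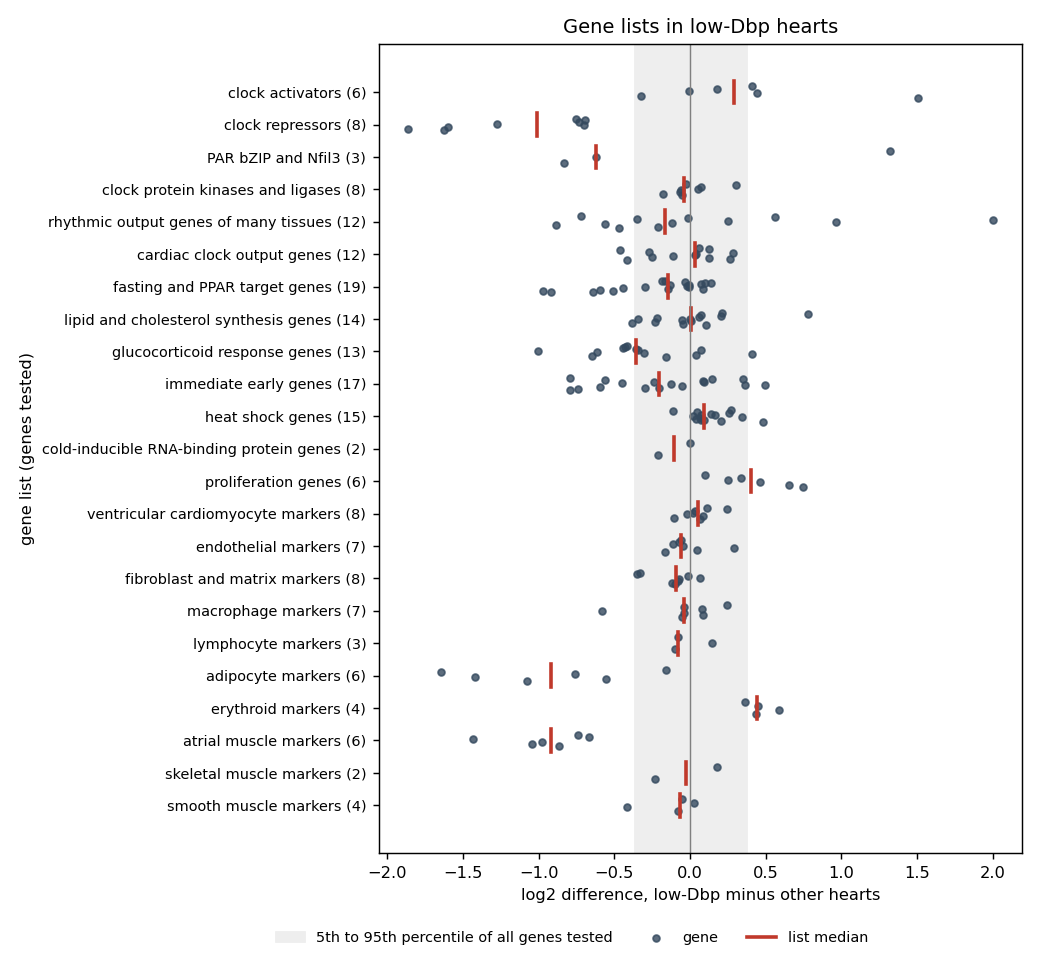
Log2 difference between low-Dbp and other hearts (x axis) of the tested genes (points) of 23 lists (y axis, number tested in brackets), with list medians in red and the range of all genes without the lowest and highest 5% (-0.36 to 0.38) in grey. The median of the clock repressors (-1.01) lies below the grey band, as do those of the PAR bZIP, adipocyte and atrial muscle lists, while those of proliferation and erythroid genes lie above it.

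The groups compared by the study were also compared here with limma, which called more genes once the Dbp class was in the model. These counts are not those of the paper, which used another test (Significance Analysis of Microarrays) on its own processing. For Nkx2-5Δtrab against Control, 432 genes had an adjusted p under 0.05 with the class and 389 without it, of which 355 were shared. For Nkx2-5Δcomp the counts were 179 and 138, of which 127 were shared. With the class in the model, the first count fell to 192 to 275 without any 1 of Control replicates 3 and 4 and Nkx2-5Δtrab replicates 3 and 4, and the other to 56 to 112 without any 1 of Control replicates 2, 3 and 4 and Nkx2-5Δcomp replicates 2, 3 and 4. The rises with the class were smaller than these falls.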

How the data were processed

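RNA of 12 left ventricles, 1 mouse per array, was hybridized to one-colour Agilent SurePrint G3 mouse arrays. The authors deposited scanner files made with Agilent Feature Extraction 10.5, whose processed signal is a background-subtracted intensity for each spot, and a table of log2 values after their quantile normalization and background filter (22114 rows). That table chose the low hearts. For the tests the scanner's signal was taken to log2 and quantile normalized across arrays, without control spots and spots flagged as outliers, and the mean over spots of a probe was used. The filter kept probes well above background on 75% of the arrays of any group (24593 probes, 24591 without Dbp).

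A linear model with group and Dbp class was fitted with limma 3.58.1 in R 4.3.3 (8 residual and 2.14 prior degrees of freedom). All adjusted p values are Benjamini-Hochberg values over all tested probes. Exact permutation tests moved the low heart within each group (64 orders, two-sided), and their p values are unadjusted. For each gene the brightest filtered probe was used. Named are all clock genes, up to 4 examples of each other list, and genes said in the text to be named after their values were seen. The hearts, members and lists were chosen with earlier results of these data known. A fold against a class without any array well above background is a bound, taken against the lowest signal well above background on each array. It differs from the fitted difference. Of the list genes, 2 enter the counts and are not reported here singly. Ciart and Adgre1 were matched by the array's older names Gm129 and Emr1. The fit was tested on simulated data. The R package data.table (version 1.17.8), Python 3.11.15 and matplotlib 3.10.9 were also used. As alternatives, each array was scaled to its 75th percentile, the background was corrected by normexp (offset 50), the filter was applied over 9 of 12 arrays or dropped, the authors' own values were used, the replicate number entered as a block, sex read from Y-linked genes entered as a covariate, the group was dropped, the Dbp level replaced the class, the low arrays were chosen by scanner values, slide 1 was fitted alone, and each array was left out in turn. Fits to hearts with Y-linked signal alone and to the 9 other hearts by their Dbp level were added after seeing the data.

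The labels do not say whether replicate numbers pair the hearts. Deviations from the group means correlated above 0.1 in 3 of 12 pairs with the same number in 2 groups. They did so in 10 of 36 pairs with different numbers. Such correlations gave no sign of a pairing but cannot exclude one.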

Additional observations from a re-analysis of the deposited data

Results flagged for a closer look

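In each group of 4 hearts, a heart far from its 3 companions was looked for in 31 named genes. Chance alone marks about 1 in 20 groups, so that several such hearts would be marked over these genes by chance. Per3 stood apart in Control replicate 1 (log2 signal 4.04, the nearest heart at 6.03) and in Nkx2-5Δtrab replicate 2 (4.55 against 5.92). Cry2 did so in Control replicate 1 (10.24 against 10.92), and Nfil3 in the same heart (11.32 against 9.49). Mki67 did so in Nkx2-5Δtrab replicate 2 (7.41 against 6.60) and Ypel2 in Nkx2-5Δcomp replicate 2 (6.93 against 5.78). These 6 values come from the 3 low-Dbp hearts, which had been chosen by Dbp. Per3 and Nfil3 had been named as markers with these data known, and Ypel2 after its values were seen, which favours such values. Rorb stood apart in Nkx2-5Δtrab replicate 3 (7.59 against 7.69), with a gap of only 0.10 log2 units.

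For Per1 and Rora the low heart lay above its companions in one group and below them in another. The interaction of class and group had an adjusted p of 1.00 for both by limma.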

How the results depend on the processing

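The count of genes passing an adjusted 0.05 between low and other hearts (any probe) stayed at 0 with scaling to the 75th percentile, normexp, a filter on 9 of 12 arrays, the authors' values, no group, the replicate block, slide 1 alone and each array left out. It was 6 without a filter, 3 with the Dbp level and 689 with sex as a covariate. Of 2 alternatives chosen after seeing the data, hearts with Y-linked signal alone gave 38 and the Dbp level among the 9 others 0. Probes under an unadjusted 0.05 numbered 1882, 1254 with the replicate block, 4638 with sex, 3435 without a filter, 927 on slide 1, 4078 among hearts with Y-linked signal and 903 (without Nkx2-5Δtrab replicate 2) to 2388 (without Nkx2-5Δcomp replicate 1) with 1 array left out.

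The interaction of class and group, 1 probe, was 2 with normexp and with the authors' values, 611 without a filter, and 0 (without Nkx2-5Δtrab replicate 2) to 3 (without Control replicate 4) with 1 array left out. Genes called for Nkx2-5Δtrab against Control with the class in the fit were 236 without a filter and 192 (without Control replicate 4 or Nkx2-5Δtrab replicate 3) to 462 (without Nkx2-5Δcomp replicate 3) with 1 array left out. For Nkx2-5Δcomp they were 291 with normexp, 108 without a filter, and 56 (without Nkx2-5Δcomp replicate 2) to 194 (without Nkx2-5Δcomp replicate 1). The cause was not tested.

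With the replicate block, which the labels do not show to pair the hearts, 14 of 17 clock genes kept their direction and 7 of 17, in place of 14, were under an unadjusted 0.05, and Arntl2 (0.37), Rora (0.15) and Rorb (-0.15) reversed. Rora, near 0, also reversed with scaling to the 75th percentile (0.0076), on slide 1 (0.13) and with 1 array left out (-0.11 to 0.13). Among the 9 other hearts Ccna2 (-0.64), Nppa (0.41) and Rgs6 (0.72) reversed. Slide and group cannot be told apart for Nkx2-5Δtrab, and no alternative removes the overlap of sex with the Dbp class among controls.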
